A study of Rattus norvegicus with 484 samples.

Results

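The genes described here are 10 rat genes of peroxisomal fatty acid breakdown, Ehhadh, Hsd17b4, Acaa1b, Ech1, Eci2, Decr2, Hacl1, Abcd3, Crot and Pex11a. They were chosen by symbol, and every probe that the array platform's annotation gives to 1 of these symbols alone was taken, which gave 25 of 23653 probes and 10 of 10210 named genes. Ehhadh, Acaa1b, Eci2, Pex11a, Crot and Abcd3 had 3 probes each, Decr2 had 4, and Hsd17b4, Ech1 and Hacl1 had 1 each. Not all are enzymes of the beta-oxidation cycle: Abcd3 is a transporter, Pex11a a membrane protein and Hacl1 an enzyme of alpha-oxidation.

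The series holds 484 two-colour arrays of rat liver, soleus muscle and the muscles labelled quad and EDL. On each array the RNA of 1 rat carried the dye Cy5, and RNA pooled from vehicle rats, matched for tissue and day, carried Cy3, so every value below is a ratio to that pool and not a level. The deposited values were taken as log10 ratios of Cy5 over Cy3 and turned into log2, a base and direction inferred from the values and the dyes, since neither is stated. Rats received a compound or vehicle for 2 to 6 days. Strain, sex and age are not in the labels used here.

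In liver there were 14 rats on fenofibrate at 400 mkd (the labels' dose unit), 15 on bezafibrate at 250 mkd, 15 on Wy-14643 at 100 mkd, 15 on rosiglitazone at 100 mkd, 15 on retinoic acid at 25 mkd and 73 on vehicle. The same treatments gave 19, 20, 18, 20 and 20 arrays of soleus with 35 of vehicle, and 18, 20, 16, 16 and 18 arrays of quad with 63 of vehicle, in that order of compounds. The EDL arrays held lower doses and no vehicle array was analysed here: 9 arrays of fenofibrate at 50 mkd, 9 of bezafibrate at 25 mkd, 12 of Wy-14643 at 10 mkd, 9 of rosiglitazone at 10 mkd, 11 of retinoic acid at 2.5 mkd and 4 of rosiglitazone at 100 mkd. Fenofibrate, bezafibrate and Wy-14643 activate the nuclear receptor PPAR alpha, rosiglitazone activates PPAR gamma, and retinoic acid activates the retinoic acid receptors. Because the doses differ, a difference between compounds is one between these doses. Of 226 rats with a number, 162 gave more than 1 tissue.

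Peroxisomes shorten very long chain, branched and dicarboxylic fatty acids by a beta-oxidation cycle of their own, which stops at medium chain length and hands the products to mitochondria. In rodent liver, ligands of PPAR alpha induce this pathway and multiply the organelle, and its genes are textbook targets of the receptor. Skeletal muscle has fewer peroxisomes and relies mainly on mitochondria for the same work.

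The promoters of 3 members are shown because their liver calls (limma, adjusted p under 0.05) differed. In the reported fit Ehhadh was called with the PPAR alpha agonists but not with rosiglitazone or retinoic acid. Crot and Eci2 were called with each of these compounds. The sequences are from RefSeq, build GRCr8, and run from 250 bases before to 50 bases after the annotated start, 5′ to 3′ on the plus strand at chr11:92746159-92746458, chr4:26052874-26053173 and chr17:30075516-30075815. Capitals mark matches on either strand to AGGTCA (the hexamer read by nuclear receptors), GGGCGG (a GC box) and CCAAT.
Ehhadh: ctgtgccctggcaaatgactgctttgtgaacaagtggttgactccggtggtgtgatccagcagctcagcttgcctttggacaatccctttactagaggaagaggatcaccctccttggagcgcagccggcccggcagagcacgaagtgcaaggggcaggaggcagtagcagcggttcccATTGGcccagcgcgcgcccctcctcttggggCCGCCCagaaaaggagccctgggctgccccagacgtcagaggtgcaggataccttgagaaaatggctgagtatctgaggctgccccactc
Crot: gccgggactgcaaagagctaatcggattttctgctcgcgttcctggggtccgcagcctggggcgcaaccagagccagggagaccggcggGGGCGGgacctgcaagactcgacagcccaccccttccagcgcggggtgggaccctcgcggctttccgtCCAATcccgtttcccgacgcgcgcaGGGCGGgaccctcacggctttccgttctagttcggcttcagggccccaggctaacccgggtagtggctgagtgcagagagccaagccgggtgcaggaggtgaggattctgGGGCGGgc
Eci2: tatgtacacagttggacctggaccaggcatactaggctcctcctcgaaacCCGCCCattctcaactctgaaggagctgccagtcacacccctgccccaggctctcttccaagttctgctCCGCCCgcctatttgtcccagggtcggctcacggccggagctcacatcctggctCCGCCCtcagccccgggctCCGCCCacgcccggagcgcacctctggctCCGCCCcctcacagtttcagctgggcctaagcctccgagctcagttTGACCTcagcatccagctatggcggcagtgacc
Of the 10 members, 9 had a promoter in the table (Ech1 did not). The direct repeat AGGTCANAGGTCA, the consensus that PPAR alpha binds with its partner RXR, was searched on both strands. It occurred exactly in 18 of 33469 promoters, 0.0538% of them, and with at most 2 mismatches over its 12 fixed letters in 1263, which is 3.77% of them. No member's window held it in either form, and the nearest was Ehhadh with 3 mismatches. The single hexamer AGGTCA stood in 2 of 9 members' windows, Hsd17b4 and Eci2, against 16.2% of all promoters. GC boxes stood in 8 of 9, against 33.1% of all, and CCAAT in 4 of 9, against 37.5% of all. For Crot and Eci2 the annotated start lies inside the gene's annotated span, chr4:26031729-26088057 and chr17:30056274-30092169. Windows at the ends of those spans are not shown. These are letter matches within 300 bases and say nothing of sites elsewhere.

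Several arrays stood apart and are given first. By a rule on the array's spread and on markers of another tissue, 9 of 484 arrays were in doubt: 3 vehicle arrays of soleus, 5 arrays of quad and 1 liver array. The liver array, rosiglitazone rat 1376 on day 4, had a median ratio of -3.96 over the hepatocyte markers and 2.21 over the skeletal muscle markers, where the median rosiglitazone liver had -0.04 and 0.01. In soleus, vehicle rat 1034 on day 4 had a hepatocyte marker median of 2.72. The other 28 soleus arrays of that day, set against the same pool, had a median of -2.36. Vehicle rat 1022 had a spread of 12.3 times the median soleus array. Apart from these, vehicle liver rat 1054 on day 5 lay above every other vehicle rat of that day in 9 of 10 members and above the lowest day 5 PPAR alpha agonist rat in all 10. Its Ehhadh ratio was 1.85, against 0.37 to 2.06 in the 9 agonist rats of day 5 and -1.24 to 0.29 in the 12 vehicle rats of that day other than rats 1050 and 1054. Its Crot ratio was 2.21, against 1.12 to 2.14 in the agonist rats. The quad of the same rat did not show this, with an Ehhadh ratio of -0.05. Vehicle liver rat 1050 lay below all others of day 5 in 9 of 10 members. The highest vehicle values of Ehhadh, Acaa1b, Crot and Pex11a below are those of rat 1054.

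Pairs of arrays of the same tissue and day that correlated below -0.3 over all probes numbered 74, all in soleus and quad. The lowest Pearson r was -0.65, in soleus on day 4. On that day 28 soleus pairs did so, 9 between vehicle arrays and 19 between a vehicle and a treated array. No pair of treated arrays did, and their lowest r was 0.31. The day held 10 vehicle arrays, and a single vehicle array set against the 28 others would give these counts. Which arrays formed the pairs was not tested. Vehicle rat 1034, described above, was the soleus array of that day in doubt. The direction of the ratios was kept because the labels state the dyes.

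Each of the 3 PPAR alpha agonists raised at least 9 of the 10 members in liver. All 10 members were higher in the mean of the 3 agonists than in vehicle (limma, adjusted p under 0.05 over all features), where 21.6% of all 18384 features were called higher. Their median log2 difference was 1.20, against 0.00 over all features. Fenofibrate raised 10 members (17.7% of all features were higher), bezafibrate 9 (11.4%) and Wy-14643 9 (19.1%). No member fell, where 19.3%, 9.89% and 21.2% of all features were lower with the 3 compounds in that order, and 23.9% with their mean. Hacl1 was the member not called with bezafibrate or Wy-14643. These are bulk tissue values, in which a change in the number of cells of a type and a change in RNA per cell cannot be told apart. P-values measure the spread between rats.

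**Figure D1:**
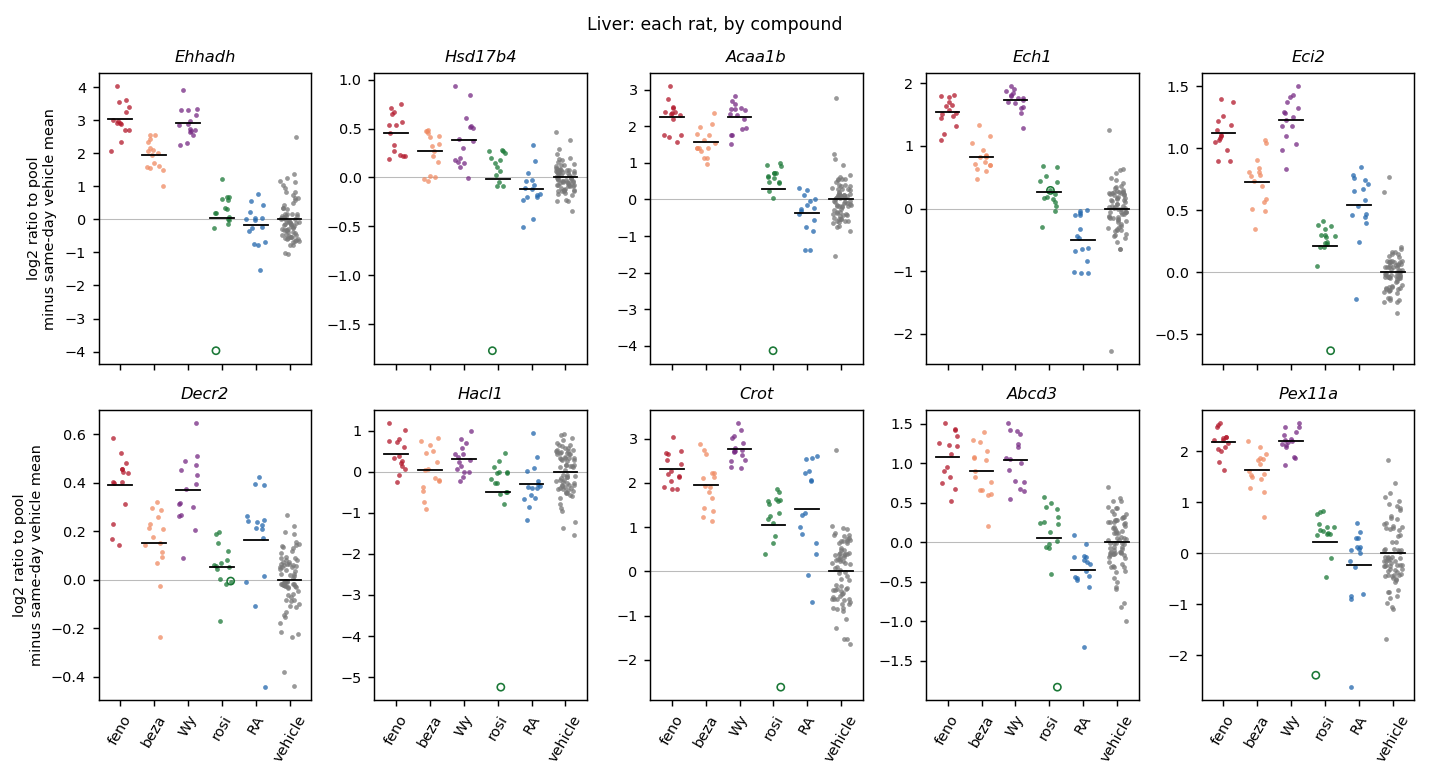
Log2 ratio of each liver array minus the mean of the same-day vehicle arrays, 1 panel for each of the 10 genes, by compound with vehicle at the right; lines are group means and open circles are arrays in doubt. For Ehhadh the fenofibrate rats sit between 2.06 and 4.02, and the median vehicle rat at -0.09.

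The enzymes of the cycle itself changed by very different amounts. Ehhadh, the bifunctional hydratase and dehydrogenase of the inducible pathway, lay at 2.06, 2.94 and 4.02 (lowest, median and highest, log2 relative to the mean of same-day vehicle) in fenofibrate livers, and at -1.05, -0.09 and 2.49 in vehicle livers. The values were 1.01, 2.00 and 2.55 in bezafibrate livers and 2.24, 2.86 and 3.91 in Wy-14643 livers. All 44 agonist rats were above the vehicle mean, and 37 of 44 were above every vehicle rat of their day. The 7 that overlapped were all day 5 rats, the day of vehicle rat 1054. The difference was 3.01 ± 0.18 (SE) with fenofibrate, 1.94 ± 0.18 with bezafibrate and 2.90 ± 0.18 with Wy-14643, or 6.13-fold for the mean of the agonists (limma adjusted p = 1.52e-40). Without rat 1054 that mean was 2.65 in place of 2.62 on the log2 scale. Of the Ehhadh probes, 2 gave 3.01 and 2.94 for it, and the other was measured on only 99 of 147 liver arrays. The averaged value includes that probe on those arrays only.

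Hsd17b4, the other bifunctional enzyme, which handles branched chains and bile acid precursors, moved far less. It lay at -0.03, 0.36 and 0.93 in the 44 agonist livers, and at -0.34, -0.01 and 0.47 in 72 vehicle livers. The groups overlapped, with 25 of 44 agonist rats above every vehicle rat of their day, and the mean difference was 0.36 ± 0.04, or 1.29-fold (limma adjusted p = 3.46e-13). Acaa1b, the thiolase that ends each round, lay at 0.97, 2.02 and 3.08 in agonist livers and at -1.55, -0.03 and 2.78 in vehicle livers. Its mean difference was 2.01 ± 0.11, or 4.02-fold, and 36 of 44 agonist rats were above every vehicle rat of their day. Rats carry a near-identical gene, Acaa1a, which no named probe on this platform represents, so which of the genes gave the Acaa1b signal is uncertain.

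The auxiliary enzymes, which prepare unsaturated chains for the cycle, split by size. Ech1, a dienoyl-CoA isomerase found in peroxisomes and mitochondria, lay at 0.47, 1.52 and 1.95 in agonist livers and at -2.27, 0.02 and 1.26 in vehicle livers. The lowest vehicle value was rat 1050, and the mean difference was 1.36 ± 0.07, or 2.58-fold. Eci2, an enoyl-CoA isomerase, lay at 0.35, 1.07 and 1.50 in agonist livers and at -0.33, -0.01 and 0.77 in vehicle livers. Its mean difference was smaller, 1.03 ± 0.04 or 2.04-fold, but its groups were the best separated of the 10, with 41 of 44 agonist rats above every vehicle rat of their day. Decr2, the peroxisomal dienoyl-CoA reductase, differed by 0.31 ± 0.03. The 4 Decr2 probes disagreed for the agonist mean, at -0.05, 0.11, 0.38 and 0.77, and only the last 2 of these were called, so the averaged value depends on the probe.

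Hacl1, the lyase of alpha-oxidation, which removes 1 carbon from branched acids, was the least affected. It lay at -0.90, 0.25 and 1.19 in agonist livers and at -1.55, 0.11 and 0.92 in vehicle livers, an almost complete overlap. The agonist mean was 0.28 ± 0.12 higher (limma adjusted p = 0.0401). Without vehicle rats 1050 and 1054 the difference was 0.25 and not called. With fenofibrate it was 0.49 ± 0.18 (limma adjusted p = 0.0234), a call lost without day 2 or day 3, with bezafibrate 0.03 ± 0.17 and with Wy-14643 0.31 ± 0.17.

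The transport and membrane genes rose as well. Abcd3, the peroxisomal membrane transporter that brings in acyl-CoAs, lay at 0.21, 1.04 and 1.51 in agonist livers and at -1.0, 0.00 and 0.70 in vehicle livers. Its mean difference was 1.00 ± 0.07, with 40 of 44 agonist rats above every vehicle rat of their day. Of the 3 Abcd3 probes, 1 had a value on only 19 of 147 liver arrays and entered the average on those alone. Crot, the carnitine transferase that releases the shortened chains for mitochondria, lay at 1.15, 2.40 and 3.36 in agonist livers and at -1.63, 0.10 and 2.75 in vehicle livers. Its mean difference was 2.35 ± 0.14, or 5.09-fold. Pex11a, a membrane protein of peroxisome division, lay at 0.72, 2.09 and 2.56 in agonist livers and at -1.67, -0.11 and 1.83 in vehicle livers. It differed by 2.00 ± 0.11, and 39 of 44 agonist rats were above every vehicle rat of their day. On this log2 scale the agonist mean differences ran from Ehhadh, Crot, Acaa1b and Pex11a at 2.00 or more, through Ech1, Eci2 and Abcd3, to Hsd17b4, Decr2 and Hacl1 below 0.40. Within the group at the top, the 95% intervals of Acaa1b (1.78 to 2.23) and Pex11a (1.78 to 2.22) nearly coincide.

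Fenofibrate at 400 mkd and bezafibrate at 250 mkd differed in liver. The 2 fibrates were set against each other in 10 genes with p-values adjusted over all features, and 5 members were higher with fenofibrate (9.3% of all features were). These were Ehhadh by 1.07 ± 0.23 (limma adjusted p = 0.000296), Ech1 by 0.73 ± 0.14, Acaa1b by 0.66 ± 0.22, Eci2 by 0.40 ± 0.07 and Decr2 by 0.24 ± 0.05. Pex11a differed by 0.55 (95% interval 0.13 to 0.97, limma adjusted p = 0.0528), Crot by 0.35 (-0.20 to 0.89) and Abcd3 by 0.17 (-0.08 to 0.42), none of them called. Both comparisons with vehicle share the vehicle arrays. The fibrate mean was lower than Wy-14643 in Ech1 by 0.54 ± 0.12 and Eci2 by 0.30 ± 0.06, where 5.31% of all features were lower.

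Wy-14643 and rosiglitazone carried the same dose number, 100 mkd. Wy-14643 was higher in all 10 members, where 15% of all features were higher, by 2.87 ± 0.23 in Ehhadh, 1.96 ± 0.21 in Pex11a, 1.72 ± 0.27 in Crot and 0.31 ± 0.05 in Decr2. The difference was 0.82 ± 0.22 in Hacl1. Without rosiglitazone rat 1376 all 10 were still called higher, by 2.58 in Ehhadh, 1.81 in Pex11a, 1.44 in Crot and 0.31 in Decr2, and the Hacl1 difference was 0.50.

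Rosiglitazone itself raised 2 members over vehicle in liver (10.3% of all features were higher) and lowered 1 (12.4%). Crot lay at -2.62, 1.32 and 1.86 in rosiglitazone livers and at -1.63, 0.10 and 2.75 in vehicle livers, with 14 of 15 rats above the vehicle mean and 9 above every vehicle rat of their day. It was higher by 1.05 ± 0.21 (limma adjusted p = 0.000132), and by 1.33 without rat 1376. Eci2 was higher by 0.22 ± 0.05 (limma adjusted p = 0.00152). Hacl1 was lower by 0.50 ± 0.17, but this rested on rat 1376, at -5.24. Without that rat Hacl1 was lower by 0.19 and not called, no member was lower, and Acaa1b was called as well, at 0.59 higher. Ehhadh, at 0.03 ± 0.18 with a 95% interval from -0.32 to 0.39, was not called. Without rat 1376 it was at 0.32 ± 0.16 and not called (limma adjusted p = 0.15).

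In liver, retinoic acid gave 3 members higher and 2 lower, where 14.2% of all features were higher and 15% lower. Whether the members differed from all features in these counts was not tested. Crot lay at -0.69, 1.32 and 2.60 in retinoic acid livers and at -1.63, 0.10 and 2.75 in vehicle livers, and was higher by 1.40 ± 0.21 (limma adjusted p = 2.3e-08). Eci2 lay at -0.21, 0.58 and 0.85 in retinoic acid livers and at -0.33, -0.01 and 0.77 in vehicle livers, and was higher by 0.54 ± 0.05 in 14 of 15 rats. Decr2 was higher by 0.16 ± 0.04. The isomerase Ech1 went the other way from Eci2: it lay at -1.03, -0.47 and -0.03 in retinoic acid livers, below the vehicle mean in 15 of 15 rats and below every vehicle rat of the day in 7. It was lower by 0.50 ± 0.10 (limma adjusted p = 6.86e-05). Abcd3 was lower by 0.35 ± 0.10 in 14 of 15 rats. Its call was lost without day 3 (0.26 lower, limma adjusted p = 0.0692). In the fit without rosiglitazone rat 1376, Acaa1b at -0.37 and Hsd17b4 at -0.12 were also called lower, for 4 lower in all. The 8 hepatocyte markers tested had 4 lower and none higher with retinoic acid. The array median over the 15 with a probe, as a ratio to the pool, was -0.40 in the median retinoic acid rat and 0.01 in the median vehicle rat. The part of these markers in the lower members was not tested.

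The liver response to the agonists was present by day 2 and was held to day 6. With fenofibrate 9, 8, 9, 8 and 9 members were higher on days 2 to 6, where 5.05%, 3.91%, 5.06%, 3.74% and 6.76% of all features were. With bezafibrate the counts were 7, 6, 7, 7 and 8 (0.283%, 1.65%, 4.43%, 1.23% and 3.08% of all features), and with Wy-14643 8, 8, 8, 8 and 9 (4.62%, 5.93%, 4.55%, 5.84% and 8.02%). Leaving out 1 rat of a day moved several of these counts, most for bezafibrate on day 2 (0 to 5 members) and day 5 (1 or 2 members). Ratios of Ehhadh to the pool, before subtraction of vehicle, show how close the 3 rats of a day lay. On day 2 they were 3.23, 3.19 and 3.19 in Wy-14643 rats, 2.80, 3.28 and 2.90 in fenofibrate rats and 2.43, 1.97 and 1.48 in bezafibrate rats, against -0.90 to 0.72 in 14 vehicle rats.

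On day 5 the ratios of Ehhadh were lower in every group, at 1.66, 1.60 and 2.03 with Wy-14643, at 1.69, 1.41 and 2.06 with fenofibrate and at 0.37, 0.85 and 1.35 with bezafibrate. The vehicle rats of day 5 were lower too, with a median of -0.95. The difference from vehicle for the mean of the agonists was 2.83, 2.5, 2.61, 2.09 and 3.04 on days 2 to 6 for Ehhadh and 2.32, 2.10, 2.27, 2.21 and 2.83 for Crot. For the agonist mean no member had a slope per day that passed the limma test, and none had an unadjusted p under 0.05, where 0.343% of all features sloped upward and 0.495% downward. With retinoic acid none passed the limma test either, where 3.35% and 6.03% did, and 2 had an unadjusted p under 0.05, both upward.

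**Figure D2:**
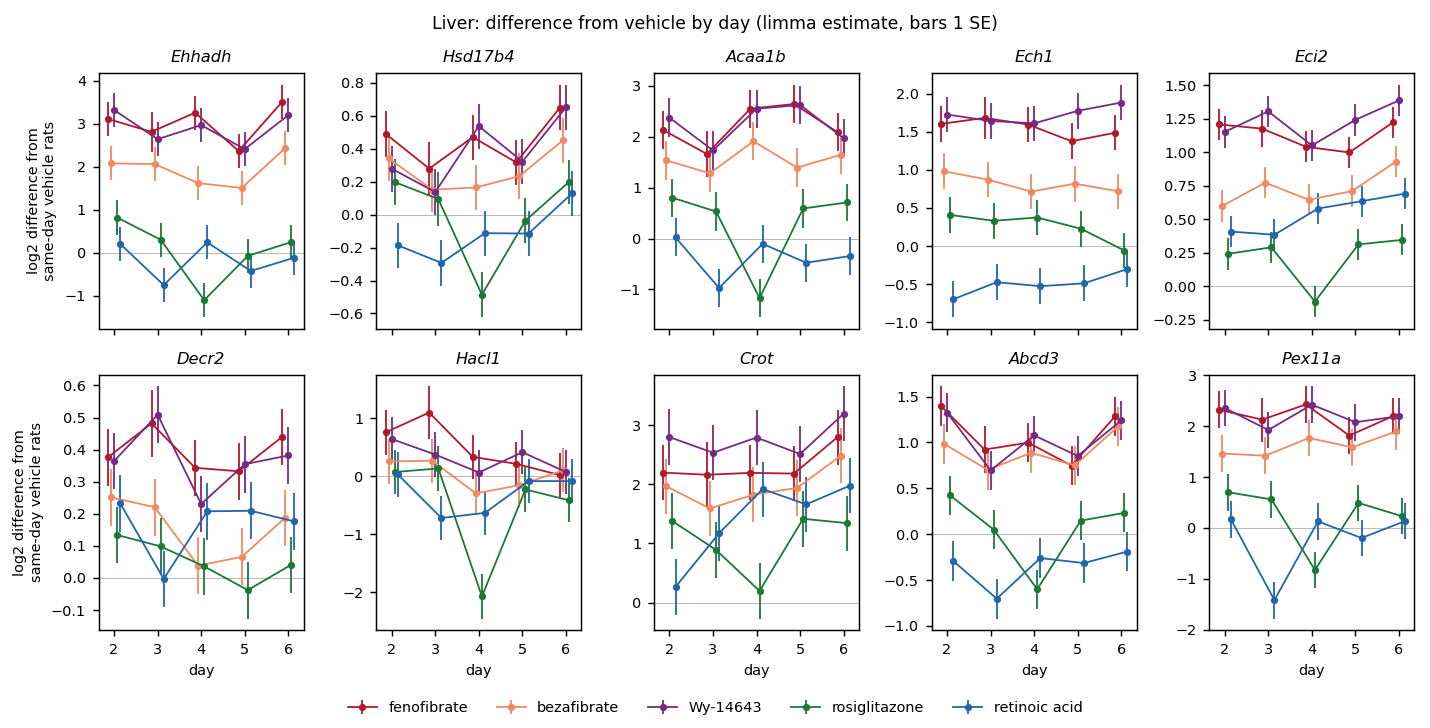
Log2 difference from same-day vehicle in liver by day of dosing, 1 panel per gene and 1 line per compound; bars are 1 SE of the limma fit. The PPAR alpha agonist lines for Ehhadh, Acaa1b, Pex11a and Crot are raised on day 2 already, and the retinoic acid line for Crot runs between 0.26 on day 2 and 1.98 on day 6.

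Crot was the member whose retinoic acid values spread most over days. Its differences were 0.26, 1.17, 1.92, 1.66 and 1.98 on days 2 to 6, of which days 4, 5 and 6 were called (3.14%, 2.12% and 4.39% of all features were higher), with a slope of 0.39 ± 0.15 per day (limma adjusted p = 0.0759). Eci2 was called higher with retinoic acid on each day, at 0.41, 0.39, 0.58, 0.64 and 0.69, where 7.08% and 10.1% of all features were higher on days 2 and 3. On day 3, where 8.6% of all features were lower, Pex11a and Abcd3 were lower by 1.42 and 0.70. Retinoic acid rat 1314 was the lowest of that day, with a Pex11a ratio of -2.75 against -0.92 and -0.96 in the other retinoic acid rats. On day 4 of rosiglitazone 5 members were called lower, where 18.9% of all features were, and without rat 1376 none was and 1 was higher.

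In liver the genes around the set moved less uniformly. With the agonist mean 21.6% of all features were higher and 23.9% lower, and whether the lists below differed from these shares was not tested. Of 16 other peroxisomal fatty acid enzymes and transporters tested, 6 were higher and 2 lower with the agonist mean, with a median of 0.08. The 4 called with the smallest p were Nudt7, a CoA-cleaving hydrolase, at 1.40 ± 0.05, Crat, carnitine acetyltransferase, at 1.01 ± 0.06, Mlycd, malonyl-CoA decarboxylase, at 0.81 ± 0.04, and the thioesterase Acot8 at 0.79 ± 0.04. Of 18 other peroxisomal enzymes 9 were higher and 5 lower, among them the protease Lonp2 at 0.56 and the hydroxyacid oxidase Hao2 at -0.62. Of 9 genes of peroxisome assembly and division tested, 4 were higher, with Pex14, a docking protein of the import machinery, at 0.41 ± 0.05. Mitochondrial beta-oxidation had 12 of 15 higher and none lower, with a median of 0.33 and Cpt1b at 2.56 ± 0.09. With retinoic acid the mitochondrial list had 8 of 15 lower and none higher, where 15% of all features were lower and 14.2% higher.

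Markers of cell types, hepatocytes included, moved with the agonists too. Of 9 macrophage and leukocyte markers 8 were lower with the agonist mean and none higher, and of 8 hepatocyte markers 3 were lower and none higher. Over all features 23.9% were lower and 21.6% higher. The array medians of the macrophage markers ran from -0.68 to 0.21 in fenofibrate livers and from -0.65 to -0.09 in Wy-14643 livers. Across 147 liver arrays, each taken relative to its same-day vehicle mean, the macrophage marker median correlated with Ehhadh at r = -0.54 and with Eci2 at r = -0.56. Their part in the members' values was not tested.

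Members also varied together among untreated rats. In the 73 vehicle livers the median Pearson r over the 45 pairs of members was 0.46, with a range from -0.28 to 0.81. In the 44 agonist livers, centred on the mean of each compound and day, it was 0.30. Without vehicle rats 1050 and 1054 the median over the 71 other vehicle livers was 0.34. The gene outside the set whose pattern was most like the members' mean over 147 liver arrays was Aig1, a hydrolase of fatty acid esters of hydroxy fatty acids, at r = 0.93. Next came Nudt7 at 0.91, Cyp4a1, the omega-hydroxylase of fatty acids, at 0.90, Cpt2 at 0.90 and Vwa8 at 0.90. Over the 73 vehicle arrays alone these were 0.72, 0.83, 0.72, 0.84 and 0.66. The arrays of a tissue and day share their pool. The mean of the same-day vehicle arrays, set against that same pool, was subtracted from each value before these correlations.

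In soleus, a slow muscle, the response was smaller and fell on few members. With fenofibrate 4 members were higher, where 2.3% of all features were, and none lower. Ech1 lay at 0.34, 1.04 and 1.39 in fenofibrate soleus and at -1.67, 0.08 and 0.47 in vehicle soleus, and 19 of 19 fenofibrate rats were above every vehicle rat of their day. It was higher by 0.97 ± 0.08, or 1.97-fold (limma adjusted p = 4.44e-18). Eci2 lay at 0.21, 0.69 and 1.16 in fenofibrate soleus and at -0.48, -0.01 and 0.35 in vehicle soleus, with 18 of 19 above every vehicle rat of their day, and was higher by 0.69 ± 0.06. Abcd3 was higher by 0.40 ± 0.09, and by 0.32 without the arrays in doubt, since vehicle rat 1022 lay at -2.26. The other member called, Acaa1b, is described with the hepatocyte markers below.

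The other agonists moved fewer members in soleus. With Wy-14643 Ech1 lay at 0.16, 0.73 and 0.99 and was above every vehicle rat of the day in 17 of 18 rats. Eci2 was higher by 0.37 ± 0.06 (limma adjusted p = 0.000297), and these 2 members were called where 0.18% of all features were higher. Bezafibrate raised 1 member, Ech1, where 0.653% of all features were higher. It lay at -0.22, 0.29 and 0.69 in bezafibrate soleus and was higher by 0.30 ± 0.08 (limma adjusted p = 0.0318), a call that was lost when day 4, 5 or 6 was left out. Rosiglitazone and retinoic acid changed no member in soleus by limma, where they raised 1.67% and 1.74% of all features and lowered 0.964% and 1.12%. At an unadjusted p under 0.05, 1 member was higher with rosiglitazone and 2 were lower with retinoic acid.

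**Figure D3:**
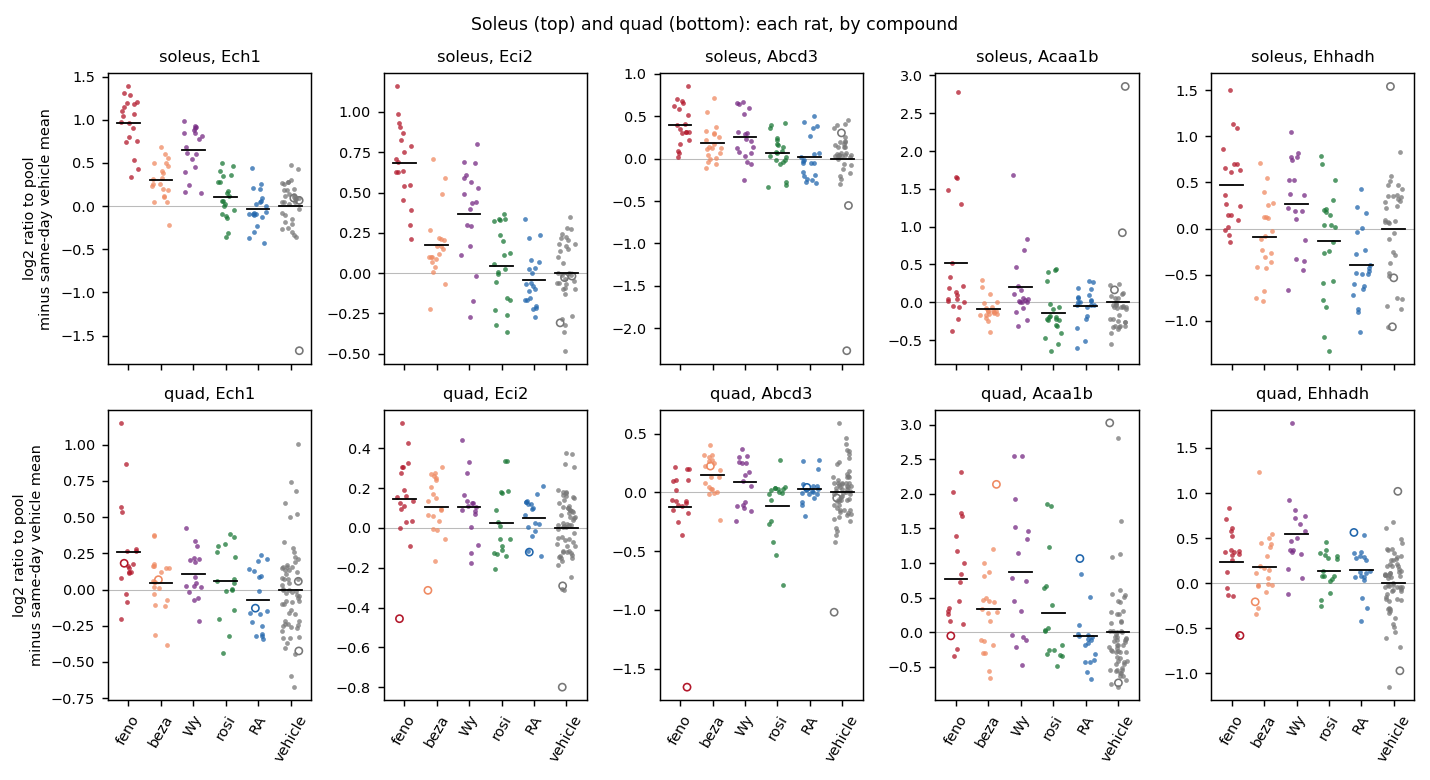
Log2 ratio of each muscle array minus the mean of the same-day vehicle arrays for Ech1, Eci2, Abcd3, Acaa1b and Ehhadh, soleus above and quad below, by compound with vehicle at the right; lines are group means and open circles are arrays in doubt. In soleus all fenofibrate points for Ech1 sit between 0.34 and 1.39.

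The ratios to the pool of Ech1 in soleus were 0.68, 0.28, 0.90 and 0.37 in fenofibrate rats on day 2, against -0.27 to 0.05 in 6 vehicle rats. On day 5 they were 1.07, 1.26, 0.95 and 1.08 in fenofibrate rats, 0.03, 0.56, 0.79 and 0.27 in Wy-14643 rats and 0.34, 0.56, 0.26 and 0.47 in bezafibrate rats, against -0.42 to 0.06 in 4 vehicle rats. By day, Ech1 was called with fenofibrate on days 3 to 6, at 1.04, 0.89, 1.22 and 1.11, and Eci2 at 0.59, 0.62, 0.92 and 0.79, where 0.098%, 0.0653%, 1.2% and 0.0544% of all features were higher. On day 2 no feature was called by limma with fenofibrate in soleus, and 3 members were higher at an unadjusted p under 0.05. Fenofibrate exceeded bezafibrate in 3 members, where 0.414% of all features were higher: Ech1, Eci2 by 0.51 and Acaa1b by 0.58. Wy-14643 exceeded rosiglitazone in Ech1 by 0.53 and Eci2 by 0.32, where 0.811% of all features were higher.

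For the agonist mean 3 members were higher in soleus, where 1.34% of all features were: Ech1, Eci2 and Abcd3. The Abcd3 call was lost without vehicle rat 1061 (0.23, limma adjusted p = 0.0794). Ehhadh, Pex11a and Crot, with large differences in liver, were not called in soleus. Ehhadh differed by 0.21 (95% interval -0.01 to 0.44), Pex11a by 0.16 (0.01 to 0.31) and Crot by 0.08 (-0.12 to 0.29). With fenofibrate alone Ehhadh lay at -0.15, 0.36 and 1.51 in treated soleus and at -1.07, 0.08 and 1.54 in vehicle soleus, a difference of 0.47 ± 0.15 (limma adjusted p = 0.0556). Without the arrays in doubt it was 0.44 and called. Beyond the set, 3 of 18 other peroxisomal fatty acid genes were higher in soleus for the agonist mean, Nudt7 at 0.48, Mlycd at 0.39 and the acyl-CoA synthetase Acsl1 at 0.19. None of the 18 other peroxisomal enzymes was called. Mitochondrial beta-oxidation had 8 of 12 higher, with Eci1, the mitochondrial enoyl-CoA isomerase, at 0.43 ± 0.07 and Hadha, a subunit of the trifunctional protein, at 0.31 ± 0.05.

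In the muscle labelled quad few members were called. Fenofibrate raised 3 members, where 2.11% of all features were higher: Acaa1b, Ech1 by 0.28 ± 0.07 (limma adjusted p = 0.0105) and Eci2 by 0.15 ± 0.05 (limma adjusted p = 0.0439). Neither Ech1 nor Eci2 kept its call when day 4, 5 or 6 was left out. Wy-14643 raised Ehhadh, which was 1 of 2 features called higher among 18422, or 0.0109%. Ehhadh lay at -0.12, 0.49 and 1.78 in Wy-14643 quad and at -1.15, 0.05 and 1.02 in vehicle quad, above the vehicle mean in 15 of 16 rats. It was higher by 0.56 ± 0.10 (limma adjusted p = 0.00235), and by 0.46 and not called without day 6, where the rats' ratios to the pool were 1.71, 0.74 and 0.26.

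Rosiglitazone raised Decr2 in quad, where 4% of all features were higher. It lay at 0.01, 0.19 and 0.30 in rosiglitazone quad and at -0.23, -0.01 and 0.31 in vehicle quad, so all 16 rats were above the vehicle mean though the ranges overlap. The difference was 0.19 ± 0.03 (limma adjusted p = 1.35e-05), and 2 of the 4 Decr2 probes on their own, at 0.19 and 0.03, were not called. Bezafibrate and retinoic acid changed no member in quad by limma, where they raised 0.532% and 0.716% of all features and lowered 1.1% and 1.7%. At an unadjusted p under 0.05, 3 members were higher with bezafibrate and 0 with retinoic acid. Fenofibrate on day 6 gave lower Crot, Hsd17b4 and Abcd3, where 18.1% of all features were lower. These calls rested on fenofibrate rat 1157, whose spread was 7.6 times the median quad array: without it Crot was at 0.10 and no member was called lower. Abcd3 was also lower with fenofibrate than with bezafibrate, by 0.29 on the log2 scale, where 2.66% of all features were, and by 0.16 and not called without the arrays in doubt. For the agonist mean 2 members were higher in quad, Acaa1b and Ehhadh, where 0.239% of all features were, and the Ehhadh call was lost without day 6.

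Acaa1b in both muscles needs its own account. With fenofibrate it lay at -0.39, 0.14 and 2.78 in treated soleus and at -0.56, -0.06 and 2.85 in vehicle soleus, a difference of 0.49 ± 0.14 (limma adjusted p = 0.0313) with 4 of 19 rats above every vehicle rat of their day. In quad it lay at -0.34, 0.59 and 2.31 with fenofibrate and at -0.79, -0.14 and 3.02 in vehicle, a difference of 0.76 ± 0.20 (limma adjusted p = 0.0139) with 6 of 18 above every vehicle rat of their day. In soleus the highest vehicle value was that of rat 1034, an array in doubt. The SD over vehicle rats was 0.56 there, and 0.19 without the arrays in doubt. In quad it was 0.71 with them and 0.60 without. With all arrays the ranges of the groups overlapped in both muscles. The soleus call was lost without day 2, 4 or 5, and the quad call without day 4 or 6. The 3 probes disagreed: with fenofibrate in quad they gave 0.07, 1.20 and 1.01, and in soleus 0.20, 0.62 and 0.66.

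Acaa1b moved in muscle with markers of liver cells. Across 132 soleus arrays, each relative to same-day vehicle, its Pearson r with the median of the hepatocyte markers was 0.72, and 0.65 over the 129 arrays not in doubt. Across 151 quad arrays it was 0.48, and 0.44 over the 146 not in doubt. Hacl1 followed at 0.58 in soleus and 0.31 in quad, and Ehhadh at 0.34 and 0.21. For Ech1 the values were -0.04 and -0.09, and for Eci2 -0.02 and -0.04. The medians of the hepatocyte markers ran from -2.41 through -0.10 to 1.14 in fenofibrate soleus and from -2.68 through -0.07 to 2.72 in vehicle soleus, and 0 of 15 of them were called with fenofibrate there. On day 4 the 28 soleus arrays other than that of vehicle rat 1034 had a median of -2.36 against their shared pool. That pool stands on both sides of the day 4 difference from vehicle, whose vehicle mean includes rat 1034. The part of the hepatocyte markers in the Acaa1b result was not tested. Fast fibre marker medians in soleus ran from -4.16 through -1.18 to 1.25 with fenofibrate and from -2.90 through -0.38 to 1.24 in vehicle, and correlated with Ech1 at r = -0.09 and with Eci2 at r = -0.11.

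The tissues were compared by the difference between their responses to the agonist mean. Liver exceeded soleus in 8 of 10 members, where 10.9% of all features did: all but Hsd17b4, at 0.18, and Hacl1, at 0.25. Liver exceeded quad in 9 of 10, where 14.1% of all features did, all but Hacl1. The gap was widest in Ehhadh, at 2.40 ± 0.17 over soleus and 2.30 ± 0.14 over quad, and in Crot, at 2.26 and 2.11. Soleus exceeded quad in Ech1, by 0.50, and Eci2, by 0.29, among 43 of 18347 features that did so, or 0.234%. The rat as a replicate block means a fit of differences between tissues within a rat, over only the rats with both tissues. For soleus and quad it held 111 rats, 28 of them on vehicle. With it Eci2 was lost there (limma adjusted p = 0.0838) and 1 member remained. Since that fit holds fewer rats than the reported one, the part of the pairing itself in a lost call was not tested.

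**Figure D4:**
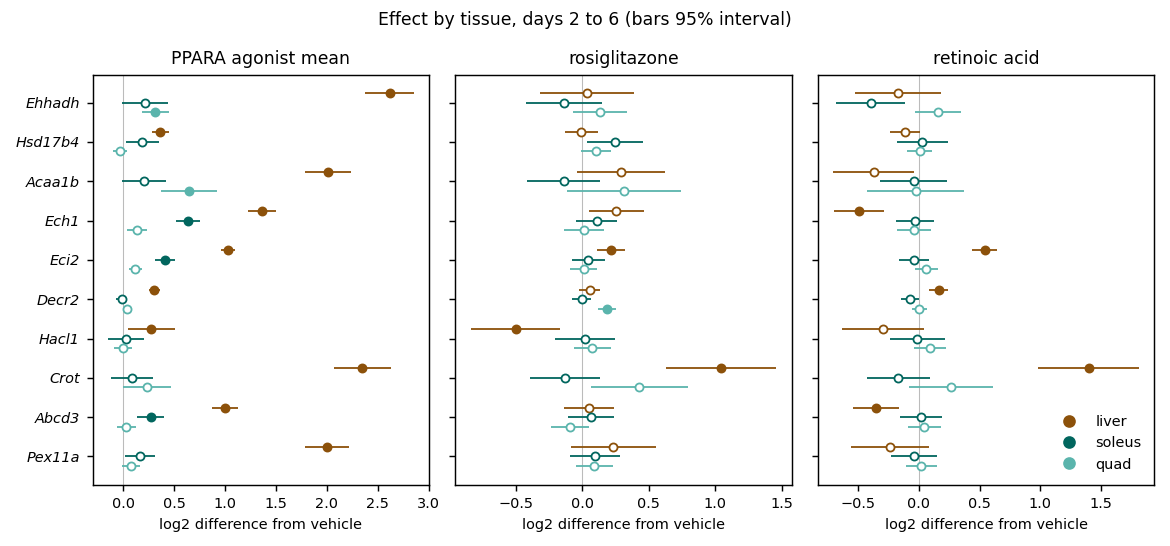
Log2 difference from vehicle for each gene in liver, soleus and quad, in 3 panels for the PPAR alpha agonist mean, rosiglitazone and retinoic acid; bars are 95% intervals and filled points have a limma adjusted p under 0.05. Liver points lie to the right for Ehhadh, Acaa1b, Pex11a and Crot in the agonist panel, and soleus Ech1, at 0.64, lies between liver at 1.36 and quad.

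For rosiglitazone the response of Crot was larger in liver than in soleus by 1.18, and by 1.56 without the arrays in doubt, where 2.16% of all features were higher in liver. Eci2 was larger in liver than in quad by 0.21, where 5.91% of all features were. Hacl1 was lower in liver than in quad by 0.58 on the log2 scale, where 7.73% of all features were, and by 0.27 and not called without the arrays in doubt. For retinoic acid Eci2, Crot and Decr2 were higher in liver than in soleus, by 0.58, 1.57 and 0.24 (5.88% of all features), and Ech1 and Abcd3 were lower, at -0.46 and -0.37 (6.85%). Against quad the same 5 members differed in the same directions, where 8.18% of all features were higher and 7.68% lower in liver. With the rat as a replicate block, 3 of these calls were lost: Eci2 with rosiglitazone against quad (limma adjusted p = 0.283), Abcd3 with retinoic acid against soleus (limma adjusted p = 0.183) and Ech1 with retinoic acid against quad (limma adjusted p = 0.0657). The Hacl1 call with rosiglitazone was lost with it too (limma adjusted p = 0.0659).

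The EDL arrays can be set only against the pool on the same array, so a difference shared by all treated rats and a property of the pool cannot be told apart. Abcd3 was above the pool with every compound, by 0.30 with fenofibrate, 0.39 with bezafibrate, 0.44 with Wy-14643, 0.33 with rosiglitazone at 10 mkd, 0.40 with retinoic acid and 0.45 with rosiglitazone at 100 mkd. All 9 fenofibrate arrays lay between 0.04 and 0.56, and all 11 retinoic acid arrays between 0.25 and 0.64. The ranges of the compounds overlapped, and the share of all features above the pool was high, from 15.6% to 23.1% by compound. Hsd17b4 was above the pool with 5 of the 6 groups, by 0.14 to 0.33, and Hacl1 with 5, by 0.20 to 0.28.

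Ech1, Ehhadh, Eci2 and Crot were not called for any single compound in EDL at these lower doses. Ech1 lay at -1.0, 0.04 and 0.28 with fenofibrate, at -0.37, -0.12 and 0.62 with bezafibrate and at -0.25, 0.07 and 0.63 with Wy-14643. Acaa1b was below the pool with 4 of the 6 groups, by 0.10 to 0.22 on the log2 scale, where 17.5% to 19.8% of all features were below it. Members above and below the pool numbered 1 and 0 with fenofibrate (17.2% and 17.4% of all features), 3 and 1 with bezafibrate (16.2% and 17.7%) and 4 and 1 with Wy-14643 (23.1% and 23.9%). They were 4 and 1 with rosiglitazone at 10 mkd (17.5% and 19.7%), 3 and 1 with retinoic acid (20.6% and 19.8%) and 4 and 1 with rosiglitazone at 100 mkd (15.6% and 17.5%). Set against the EDL arrays of the other compounds in place of the pool, no member was called by limma for any compound, with a lowest adjusted p of 0.372. On day 4 the 2 doses of rosiglitazone differed in no member by limma, and in 0 at an unadjusted p under 0.05, where 2 of 18603 features were called. The skeletal muscle markers were themselves below the pool, with a median of -0.42 over Wy-14643 arrays, and their part in the values was not tested.

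**Figure D5:**
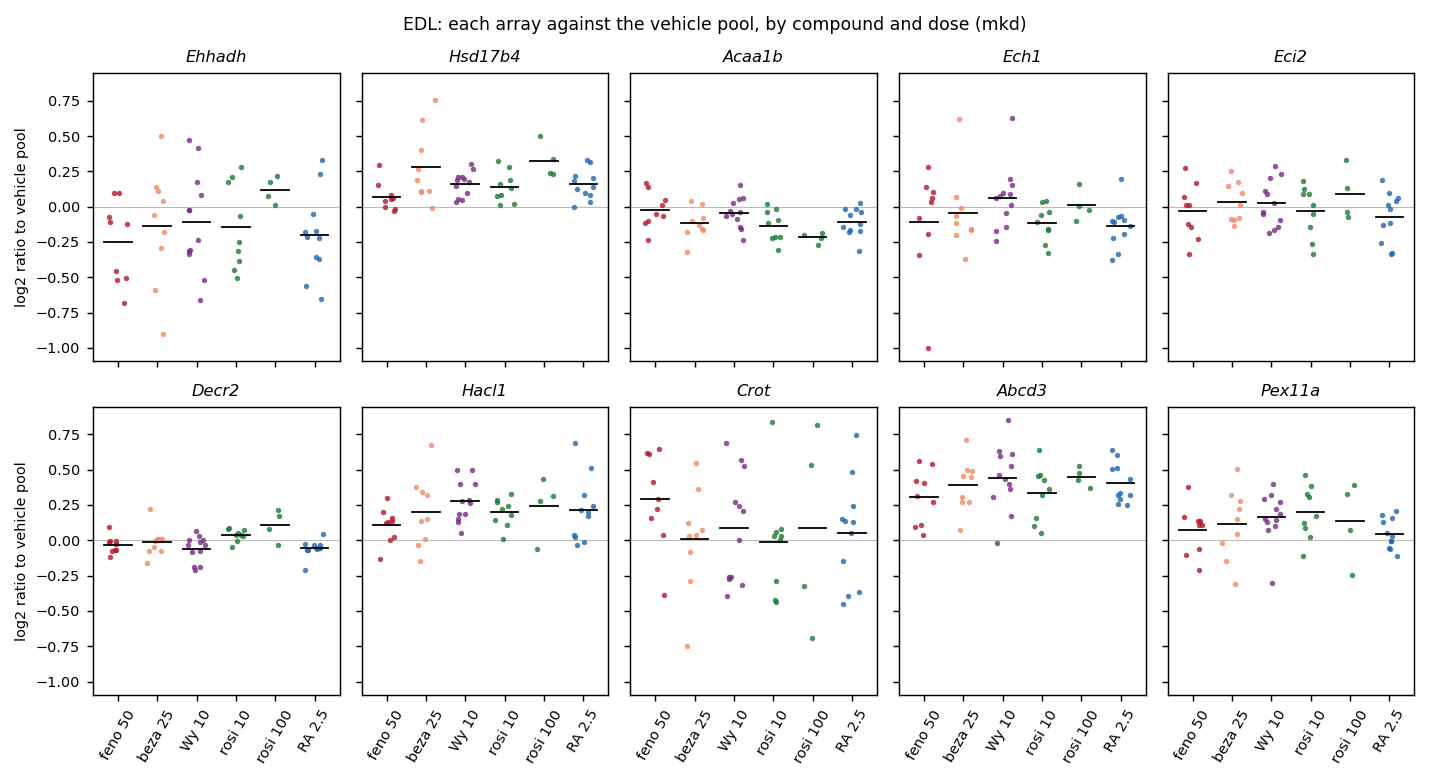
Log2 ratio of each EDL array to its vehicle pool, 1 panel per gene, by compound and dose; the line at 0 is the pool. Abcd3 points lie above 0 except for 1 of 12 Wy-14643 arrays, at -0.02, and Ech1 points lie on both sides of it.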

How the data were processed

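The 484 arrays hold 1 rat's RNA in Cy5 and a same-tissue, same-day vehicle pool in Cy3, per the labels. The authors deposited 1 table of log10 ratios, with the base and direction not stated and inferred here: values stopped at 2, a 100-fold limit reached by 699 values, and 0.907% were missing. Background correction and normalization are not given in the sources used here. Array medians ran from -0.34 to 0.17 on the log2 scale. Depth has no meaning here: the number of arrays limits the precision.

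Values were multiplied by 3.32193 to give log2. Of 23653 probes, 15260 had 1 gene symbol, 17 several and 8376 none. Probes of 1 symbol were averaged, on each array over those with a value there, and the other probes were kept singly. Features with a value on 80% or more of the arrays of a tissue were tested with limma 3.58.1 (R 4.3.3, statmod 1.5.0). The fit was on cell means of compound and day, with Benjamini-Hochberg adjustment over all features at 0.05. Members' values, the markers and the motifs used Python 3.11.15 with numpy 2.4.6, pandas 2.3.3 and scipy 1.17.1, and figures used matplotlib 3.10.9. All members are named, with up to 4 called genes of each list and the 5 genes most like the members' mean. The members and lists were chosen with earlier results of these data known.

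Nothing in the labels says more of the samples of a group than that they are separate rats. Tissues were compared through interaction terms, without a block in the reported fit. The same rat number in 2 tissues is the same animal: the median correlation of deviations was 0.137 in the same rat and -0.0371 between rats for liver and soleus, 0.143 and -0.0184 for liver and quad, and 0.259 and -0.0672 for soleus and quad. On simulated data for the agonist mean over 18403 features of liver, 97% of log2 changes of 0.3 were recovered, in 18370 features of soleus 50%, and in 18425 features of quad 97%, with 5, 7 and 11 false calls. The noise was normal, with each feature's SD over all vehicle arrays of the tissue, those in doubt included. These shares therefore do not measure the power of the real arrays.

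Alternatives were array medians, array weights, each probe, the pool as reference, leaving out days, rats or arrays in doubt (spread over 3 times the tissue median, or markers of another tissue over 2 log2 units above the same tissue and day), and the rat as a block. Leaving out single arrays in doubt, by-day fits without them, and leaving out vehicle liver rats 1050 and 1054, also from the correlations among members, were chosen after seeing the data.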

Additional observations from a re-analysis of the deposited data

Results flagged for a closer look

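In EDL, 4 of 40 combinations of a gene and a group had a single array far from the others of its group by Dixon's test, where chance gives about 1 in 20 of such combinations. In bezafibrate EDL 1 array had an Ech1 ratio of 0.62, with the next at 0.07, and 1 had a Decr2 ratio of 0.22. In fenofibrate EDL 1 array had an Ech1 ratio of -1.0, with the next at -0.34, and in EDL on rosiglitazone at 10 mkd 1 array had a Crot ratio of 0.83.

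Responses differed between tissues in the test of the difference itself. For the PPAR alpha agonist mean, liver exceeded soleus by 2.40 in Ehhadh, 1.80 in Acaa1b, 0.73 in Ech1, 0.62 in Eci2, 1.84 in Pex11a, 2.26 in Crot, 0.73 in Abcd3 and 0.32 in Decr2. It exceeded quad by 2.30 in Ehhadh, 1.36 in Acaa1b, 0.40 in Hsd17b4, 1.23 in Ech1, 0.91 in Eci2, 1.93 in Pex11a, 2.11 in Crot, 0.97 in Abcd3 and 0.27 in Decr2. Soleus exceeded quad by 0.50 in Ech1 and 0.29 in Eci2.

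For rosiglitazone, liver minus soleus was 1.18 in Crot, and liver minus quad was 0.21 in Eci2 and -0.58 in Hacl1, the last resting on liver rat 1376 (-0.27 and not called without the arrays in doubt). For retinoic acid, liver minus soleus was -0.46 in Ech1, 0.58 in Eci2, 1.57 in Crot, -0.37 in Abcd3 and 0.24 in Decr2. Liver minus quad was -0.45 in Ech1, 0.48 in Eci2, 1.14 in Crot, -0.40 in Abcd3 and 0.16 in Decr2. With the rat as a replicate block, Eci2 and Hacl1 with rosiglitazone against quad, Abcd3 with retinoic acid against soleus and Ech1 with retinoic acid against quad were not called (limma adjusted p = 0.283, 0.0659, 0.183 and 0.0657 in that order), nor was Eci2 between soleus and quad (limma adjusted p = 0.0838).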

How the results depend on the processing

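Of the counts of members called, 469 stayed within 1.5 times the reported count under an alternative and 97 did not. Of single members' values, 4248 kept direction and side of the threshold, 173 lost a call and 118 gained one. Another 252 changed sign without a call in either fit, and 31 changed sign with a call in at least 1 fit. In liver, counts for the 3 PPAR alpha agonists held within 1.5 times in every setting run over all days, except that Wy-14643 had 1 member lower with each probe apart. Rosiglitazone had 7 members higher with array weights and 4 without day 4 or with each probe apart. It had 0 lower with weights, without the arrays in doubt, without rat 1376, day 4 or day 6, and 2 with each probe apart. Retinoic acid had 4 lower with weights, without the arrays in doubt or without rat 1376, 1 without day 3 and 5 against the pool. On day 4 of rosiglitazone, without rat 1376, 1 member was higher and 0 lower, and Ehhadh turned to 0.33, Acaa1b to 0.31, Hsd17b4 to 0.16 and Abcd3 to 0.015.

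Leaving out 1 rat of a day left 4 to 5 members higher with fenofibrate on day 3, and with bezafibrate 0 to 5 on day 2, 2 to 3 on day 3, 4 to 6 on day 4 and 1 to 2 on day 5. With array weights Hsd17b4 was at 0.14 with rosiglitazone in liver. Single Decr2 probes in liver changed sign, at -0.074 with fenofibrate, -0.030 with bezafibrate, -0.026 with retinoic acid, -0.12 with Wy-14643, -0.13 with rosiglitazone and -0.045 for the agonist mean.

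In soleus, fenofibrate raised 2 members without day 5 and 7 against the pool. Bezafibrate raised 0 without day 4, 5 or 6, and 3 against the pool, with 2 lower. Wy-14643 raised 1 without day 4 and 4 against the pool, with 1 lower. Rosiglitazone raised 1 with weights, without the arrays in doubt, without rat 1022 and against the pool, with 1 lower against the pool. Retinoic acid lowered 2 with weights, 1 without the arrays in doubt and 4 against the pool. The agonist mean had 7 higher and 1 lower against the pool, with Hacl1 at -0.10, and fenofibrate exceeded bezafibrate in 5 members without the arrays in doubt.

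In quad, fenofibrate raised 1 member with weights or without day 5 and 0 without day 4 or day 6, and lowered 1 without day 3. Bezafibrate raised 1 with weights or against the pool. Wy-14643 raised 2 with weights or without the arrays in doubt and 0 without day 6. Rosiglitazone raised 2 without day 6. The agonist mean raised 4 with weights and 1 without day 6. Without the arrays in doubt fenofibrate was below bezafibrate in 0 members and lowered 0 on day 6, with Crot at 0.10.

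In EDL, with the arrays of the other compounds in place of the pool, 0 members were higher or lower (limma, lowest adjusted p 0.372), and Abcd3 was at -0.088 with fenofibrate, -0.054 with rosiglitazone at 10 mkd and -0.0070 with retinoic acid. Hsd17b4 was at -0.028 with rosiglitazone and -0.014 with retinoic acid, and Hacl1 at -5.5e-05 with retinoic acid. With each probe apart 2 were higher and 3 lower with fenofibrate, 2 lower with bezafibrate and with rosiglitazone at 100 mkd, and 3 lower with Wy-14643, rosiglitazone at 10 mkd and retinoic acid, which had 2 lower with medians subtracted. Single EDL probes changed sign: Acaa1b at 0.13 with fenofibrate, 0.10 with Wy-14643, 0.013 and 0.057 with retinoic acid and 0.029 and 0.062 for the agonist mean, Pex11a at -0.024 with Wy-14643 and -0.010 for the mean, Decr2 at -0.10 and -0.21 with rosiglitazone at 10 and 100 mkd and 0.029 for the mean, and Ehhadh at 0.040 for the mean.

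Between tissues, the replicate block was a fit of within-rat differences. It held only the 106 rats with liver and soleus, 121 with liver and quad and 111 with soleus and quad. In each pair with quad, 1 combination of compound and day had no such rat and was left out. Liver exceeded soleus with rosiglitazone in 2 members without the arrays in doubt and in 3 with the replicate block as well, and with retinoic acid 1 was lower with the replicate block or with medians subtracted. For liver against quad with rosiglitazone, 0 were higher with medians subtracted or the replicate block and 2 without the arrays in doubt, with or without the block, and 0 were lower in those 3 fits other than the medians. With retinoic acid 1 was lower with the block, with or without the arrays in doubt. Soleus exceeded quad in 1 member for the agonist mean with the block, 1 was lower with rosiglitazone without the arrays in doubt, and 1 with retinoic acid with the block and without those arrays. The block changed no other count by over 1.5 times.

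Counts over all features moved more. In soleus they ran from 147 to 3546 (612 reported) with fenofibrate, 23 to 2215 (166) with bezafibrate, 12 to 1303 (35) with Wy-14643, 215 to 3281 (484) with rosiglitazone, 192 to 3071 (524) with retinoic acid and 89 to 5664 (360) for the agonist mean, the highest always against the pool. In quad they ran from 22 to 3192 (1048), 84 to 1440 (300), 0 to 188 (3), 563 to 4208 (1263), 210 to 829 (445) and 44 to 3178 (155) in the same order. In liver bezafibrate ran to 7482 (3910) and retinoic acid to 8376 (5377) with weights, and rosiglitazone to 2577 (4162) without day 4. In EDL 0 to 122 were called against the other compounds (6311 to 8754 against the pool). For the agonist mean the block gave 2783 between liver and soleus (4438). Against the pool the split of higher to lower calls moved by over 10 percentage points: in soleus to 2067 and 1479 with fenofibrate (423 and 189 reported), 1278 and 937 with bezafibrate (120 and 46) and 768 and 535 with Wy-14643 (33 and 2). In quad it moved to 2036 and 1156 with fenofibrate (388 and 660), 703 and 737 with bezafibrate (98 and 202) and 1957 and 1221 for the mean (44 and 111). With medians subtracted, fenofibrate minus bezafibrate in quad had 262 higher and 621 lower (346 and 490). The causes were not tested. A simulated log2 change of 0.3 in soleus was recovered in 50% of cases, with noise whose SD took in the vehicle arrays in doubt. Smaller changes were not simulated.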

Other observations

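Vehicle liver rat 1054 was also high in genes outside the set, with ratios of 1.17 for Cyp4a1, 1.56 for Cpt1b and 1.02 for Nudt7. The 9 PPAR alpha agonist rats of day 5 ran from 1.15 to 2.35 in Cyp4a1, 0.49 to 3.26 in Cpt1b and 1.02 to 1.72 in Nudt7, and the 12 vehicle rats of day 5 other than rats 1050 and 1054 reached 0.40, 0.37 and 0.27. Among the members rat 1054 was above the median agonist rat of that day in 5 of 10. The reason was not tested.

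In soleus the genes whose pattern over 132 arrays was most like the members' mean were Eci3, an isomerase close in sequence to Eci2, at r = 0.81, Cpt2 at 0.80, and Nudt7, Lactb2 and Acot1 at 0.79 each. Nudt7 was called higher for the agonist mean in liver, soleus and quad, at 1.40, 0.48 and 0.22. Quad also had higher Eci1, Hadh and Hadha, at 0.19, 0.16 and 0.11, out of 18 mitochondrial beta-oxidation genes tested, where 0.239% of all features were higher.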
